A study of Mus musculus with 4 samples.

Results

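Cytokines are small secreted proteins that carry messages between cells by binding receptors on the cell surface. Interleukins mostly signal through paired receptor chains and the JAK and STAT proteins, chemokines guide cell movement through G protein-coupled receptors, and ligands of the tumour necrosis factor (TNF) superfamily signal through trimeric receptors coupled to TRAF adaptors and NF-kappa B. In skeletal muscle such genes are expressed by muscle fibres, by vessel and connective tissue cells and by resident leukocytes, and interleukin 6 and interleukin 15 are known as factors made by muscle itself.

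The genes described here are 96 of the 8251 genes measured by at least 1 probe set with 1 gene symbol. They were taken by symbol alone, as interleukins (Il followed by a digit), C-C and C-X-C chemokines (Ccl, Cxcl), their receptors (Ccr, Cxcr) and members of the TNF ligand and receptor superfamilies (Tnfsf, Tnfrsf). The rule found 113 probe sets, of which 2 were Affymetrix controls and 111 were tested. A further 7 probe sets carried several symbols, at least 1 of them matching, and were left out.

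RNA came from pooled gastrocnemius and soleus muscle of untreated males aged 6.5 months on a mixed C57BL/6x129 background. Mice lacking the urocortin receptor gene (Crhr2-/-, here KO) were compared with wild-type littermates (Crhr2+/+, here WT). Each genotype had 4 mice in 2 pools of 2, and each pool was hybridised to 1 Affymetrix U74Av2 array, so 2 arrays stand for each genotype and their spread is between pools. The values are the authors' deposited signal intensities in arbitrary units, and intensities of different probe sets cannot be set against each other as transcript amounts.

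All 10 skeletal muscle markers were bright on these arrays. The brighter Crhr2 probe set read 154 and 192 in WT, against 100.4 and 75.1 in KO, and the dimmer one overlapped between genotypes. Pools differed in signs of other tissues: the summed intensity of 8 liver markers was 643 and 1665 in WT, against 269 and 385 in KO, and that of 4 exocrine pancreas markers was 1042 and 1028 in WT, against 7525 and 2513 in KO. The part of these tissues in the results below was not tested. In such bulk samples, fewer cells of a type and less RNA per cell cannot be told apart.

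Most of these genes gave low signals in muscle. A probe set was called bright when its mean over the 4 arrays, on the log2(intensity + 14) scale, was at or above that of the median probe set, which corresponds to an intensity of 66.2. Of the 111 member probe sets, 26 were bright (23.4%, against 6211 of all 12422 probe sets by construction), covering 22 genes, and 74 genes had dim probe sets only. Interleukin 9 (Il9), at a level of 69.95 from its mean log2 value, lay just inside the limit, and Il16, at 65.6, just outside. No detection calls were available, so a dim reading may hold little or no specific signal.

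No member differed between genotypes after adjustment. With limma and Benjamini-Hochberg adjustment over all 12422 probe sets, 0 of the 111 passed at 0.05 (0.0% of all probe sets did), and the smallest adjusted p of a member was 0.830. At an unadjusted p under 0.05 there was 1 member, the dim Tnfrsf11b, against 5.43% of all probe sets. The size rule, which asks for a bright level and a difference of at least 2-fold between genotypes whose pools do not overlap, was met by 0 members, against 0.443% of all probe sets. Fold changes below are log2 values of KO over WT on the log2(intensity + 14) scale, with standard errors from that fit. They understate differences of dim probe sets.

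As a group the members were balanced, with 56 of the 111 higher and 55 lower in KO by their means and a median log2 fold change of 0.0038, against 0.0001 for all probe sets. The 40 without overlap in either direction made up 36.04%, against 34.6% of all probe sets. Bright and dim members are given apart, and the difference between these classes was not tested. Of the 26 bright members, 17 were higher in KO, 8 were higher without overlap between genotypes (30.8%, against 16.0% of bright probe sets) and 2 were lower without overlap (7.69%, against 19.0%). Their median log2 fold change of 0.15 became 0.29 when WT replicate 1 was left out and 0.04 when WT replicate 2 was. Of the 85 dim members, 17 were higher without overlap (20%, against 18.0% of dim probe sets) and 13 lower (15.3%, against 16.3%), with a median of -0.05. Leaving out KO replicate 1 gave a dim median of 0.11, leaving out KO replicate 2 gave -0.11, and leaving out WT replicate 2 gave 0.0463, beside the bright median of 0.041 in that setting.

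**Figure D1:**
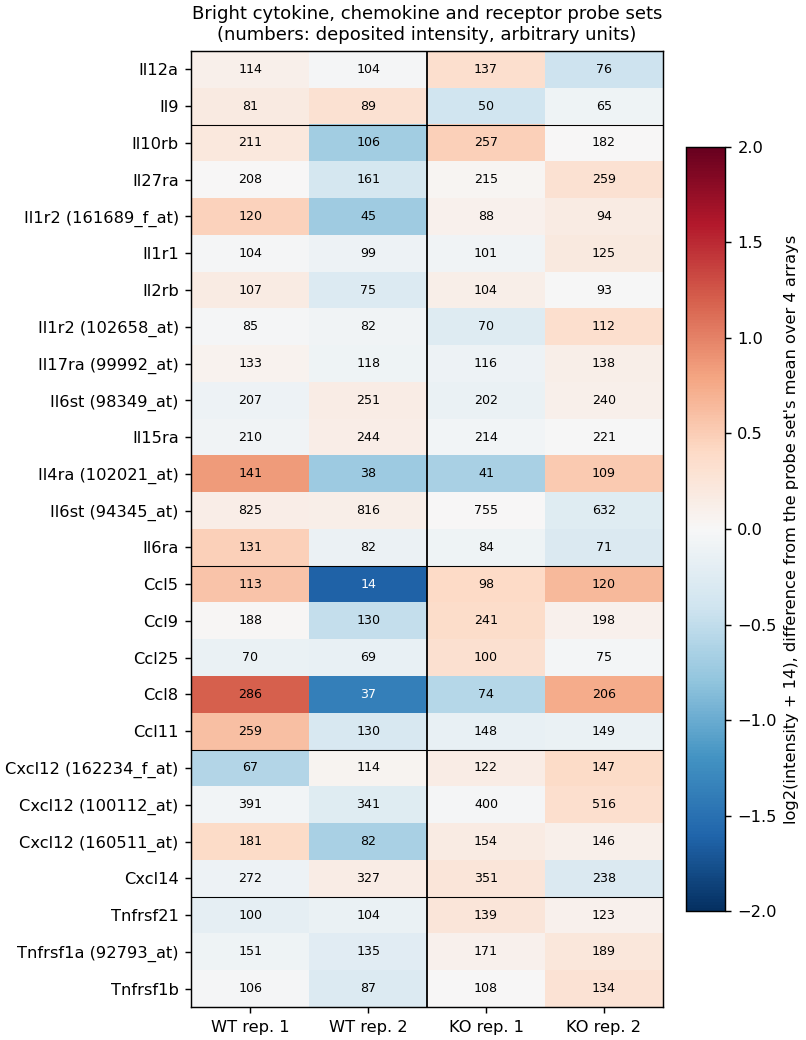
Heat map of the 26 bright member probe sets (rows, in blocks of interleukins, interleukin receptor chains, C-C chemokines, C-X-C chemokines and TNF receptors) on the 4 arrays (columns). Colour gives the log2 difference from the probe set's own mean, printed numbers are deposited intensities, and probe set identifiers are given where a gene has several. WT replicate 2 is the lowest array in 15 of the 26 rows, most deeply for Ccl5 and Ccl8.

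The promoters of 4 members are shown. Of these, 3, Tnfrsf1a, Tnfrsf1b and Ccl9, were bright and higher in KO without overlap. Cxcl10, a target of interferon signalling, was dim and lower without overlap. Il27ra, Tnfrsf21, Ccl25 and Cxcl12 on its brightest probe set were also bright and higher without overlap, but are not shown. Among those left out, only Ccl25 had a match to a motif below, the TATA box. The promoters shown therefore do not stand for the bright members higher in KO. Each sequence is the 250 bases before the annotated start, on the gene's strand, from RefSeq on GRCm38.p6. Capitals mark matches on either strand to the TATA box (TATAAA), the STAT site (TTCNNNGAA), a paired interferon response motif (GAAANNGAA), the AP-1 site (TGANTCA), the cAMP response element (TGACGTCA) or the NF-kappa B consensus.
Tnfrsf1a: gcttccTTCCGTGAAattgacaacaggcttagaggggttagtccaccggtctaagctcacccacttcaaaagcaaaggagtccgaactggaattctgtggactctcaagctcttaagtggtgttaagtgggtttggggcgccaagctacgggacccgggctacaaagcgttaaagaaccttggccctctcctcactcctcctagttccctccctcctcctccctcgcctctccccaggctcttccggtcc
Tnfrsf1b: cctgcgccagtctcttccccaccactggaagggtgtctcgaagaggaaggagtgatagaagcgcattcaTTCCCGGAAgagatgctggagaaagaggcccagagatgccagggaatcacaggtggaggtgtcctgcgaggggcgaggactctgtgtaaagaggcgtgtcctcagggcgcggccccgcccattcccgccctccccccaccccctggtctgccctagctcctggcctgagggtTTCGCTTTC
Ccl9: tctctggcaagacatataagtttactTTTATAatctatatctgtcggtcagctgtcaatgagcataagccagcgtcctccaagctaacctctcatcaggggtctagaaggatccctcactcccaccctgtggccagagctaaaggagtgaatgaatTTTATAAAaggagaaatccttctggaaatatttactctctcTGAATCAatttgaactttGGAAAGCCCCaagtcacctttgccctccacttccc
Cxcl10: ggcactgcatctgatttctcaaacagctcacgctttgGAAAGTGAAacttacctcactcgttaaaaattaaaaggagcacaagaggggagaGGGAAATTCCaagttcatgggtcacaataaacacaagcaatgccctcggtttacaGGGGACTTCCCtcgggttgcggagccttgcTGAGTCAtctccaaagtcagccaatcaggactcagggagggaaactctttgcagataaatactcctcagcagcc
The Tnfrsf1a window at chr6:125349473-125349722 (plus strand) held 1 STAT match, 244 bases before the start. That of Tnfrsf1b at chr4:145246871-145247120 (minus strand) held 1 STAT match 181 bases before the start and 1 interferon match at its end. In the Ccl9 window at chr11:83578637-83578886 (minus strand), 3 TATA matches, of which a pair on opposite strands overlap, stood with 1 AP-1 and 1 NF-kappa B match. The Cxcl10 window at chr5:92348890-92349139 (minus strand) held an interferon match 213 bases before the start, NF-kappa B matches at 159 and at 103 to 104 bases, where matches overlap, and an AP-1 match at 74 bases.

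Windows were found for 76 of the 96 genes, 92 windows in all, and are compared with all 32851 windows of the table. An NF-kappa B match lay in 15.2% of member windows and 7.25% of all windows, an AP-1 match in 17.4% and 6.75%, a STAT match in 14.1% and 7.02%, an interferon response motif in 14.1% and 7.13%, and a TATA box in 18.5% and 12.4%. The cAMP response element, the site of a pathway that Crhr2 can activate, was in 0 of 92 member windows and in 1.55% of all windows. At so low a share over all windows, 0 of 92 does not show a difference. These are descriptions of letters and not of bound sites.

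Interleukins were almost all dim, with 2 bright probe sets among 22 for 19 genes. By their means 15 of the 22 were lower and 7 higher in KO, with a median log2 fold change of -0.10. Bright Il9, a growth factor for mast cells and T cells, read 80.7 and 89.5 in WT, against 50.03 and 65.2 in KO, a log2 fold change of -0.47 ± 0.30 (limma adjusted p = 0.908). Both KO pools were below both WT pools. Il12a, the p35 subunit of interleukin 12, read 114 and 104 in WT, against 137 and 75.6 in KO, so the KO pools lay on either side of WT.

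The interleukins known to be made by muscle were dim. Il6 read 5.03 and 2.81 in WT, against 2.30 and 19.0 in KO, with 1 KO pool above the other 3 arrays (0.37 ± 0.35). Il15 read 18.8 and 19.7 in WT, against 20.8 and 10.8 in KO (-0.18 ± 0.31), and the genotypes overlapped. The inflammatory Il1b read 6.36 and 16.2 in WT, against 5.71 and 14.9 in KO, so each genotype had 1 lower and 1 higher pool.

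Among the other dim interleukins, Il10 and Il18 separated the genotypes in opposite directions. Il10, which restrains inflammatory cells, read 15.8 and 6.66 in WT, against 5.60 and 3.72 in KO (-0.41 ± 0.25). Il18, which induces interferon gamma, read 34.3 and 33.8 in WT, against 46.1 and 53.8 in KO (0.41 ± 0.34). Il3 and Il17d were also lower without overlap, and Il2 and 1 of the 4 Il4 probe sets higher, all at differences of 0.30 or less in size. Il2 read 1.54 and 1.73 in WT, against 2.74 and 2.84 in KO. That Il4 probe set read 4.68 and 3.80 in WT, against 5.71 and 5.87 in KO, so specific signal is uncertain for both. In all, 6 of the 20 dim interleukin probe sets did not overlap, against 34.2% of dim probe sets. The remaining dim interleukins overlapped and ranged in intensity between 2.32 and 75.0, with Il17a at 14.7 and 71.9 in WT showing how far pools of 1 genotype could lie apart.

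Interleukin receptor chains held 12 of the 26 bright probe sets. Over 28 probe sets of 23 genes, 13 were higher and 15 lower in KO by their means (median -0.05). Of the 28, 5 did not overlap, against 34.6% of all probe sets, so separation was less frequent here than over the table. The interleukin 6 receptor pair was lower in KO on average. Il6st, the signal-transducing chain gp130 shared by the interleukin 6 family, read 825 and 816 in WT, against 755 and 632 in KO on its brighter probe set, a difference of -0.24 ± 0.12 (limma adjusted p = 0.908). Its other bright probe set read 207 and 251 in WT, against 202 and 240.4 in KO and did not separate the genotypes. Il6ra, the chain that binds interleukin 6, read 131 and 82.3 in WT, against 84.4 and 71.1 in KO (-0.37 ± 0.31), and WT replicate 2 lay with the KO pools.

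Il27ra, the receptor for interleukin 27, was higher in both KO pools. It read 208 and 161 in WT, against 215 and 259 in KO (0.34 ± 0.20, limma adjusted p = 0.908). Il10rb, a chain shared by the receptors for interleukin 10 and interleukin 22, read 211 and 106 in WT, against 257 and 182 in KO (0.49 ± 0.34), with KO replicate 2 below WT replicate 1.

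Bright receptor chains for interleukins 1, 2 and 15 overlapped between genotypes. Il15ra, which presents interleukin 15, read 210.1 and 244 in WT, against 214 and 221 in KO (-0.05 ± 0.16), and Il2rb, the shared beta chain, differed by 0.11 ± 0.28. The dim alpha chain Il2ra read 35.5 and 24.4 in WT, against 6.33 and 37.1 in KO (-0.44 ± 0.50), with 1 low KO pool. Il1r1, the signalling receptor for interleukin 1, read 104 and 99.2 in WT, against 101 and 125 in KO (0.13 ± 0.24). Its decoy Il1r2 differed by 0.25 ± 0.43 and 0.08 ± 0.31 on its 2 bright probe sets, and Il17ra by 0.01 ± 0.22. Il4ra, which binds interleukin 4, read 141 and 37.5 in WT, against 40.6 and 109 in KO on its bright probe set. Each genotype therefore had 1 high and 1 low pool (-0.12 ± 0.63), while its dim probe set read 31.5 and 38.4 in WT, against 27.8 and 45.9 in KO.

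Of the 16 dim receptor probe sets, 3 did not overlap, against 34.2% of dim probe sets. Il3ra and 1 probe set of Il12rb1 were higher and Il5ra lower, by at most 0.23 in size. Il5ra read 3.59 and 3.39 in WT, against 2.14 and 2.58 in KO. That Il12rb1 probe set read 3.77 and 6.21 in WT, against 10.1 and 6.38 in KO. Specific signal is uncertain at such intensities. Il18r1, the ligand-binding chain for interleukin 18, had the lowest value among receptor chains at -0.67 ± 0.57. Its KO pools read 39.0 and 3.36, beside 41.8 and 27.7 in WT. Il13ra1, which pairs with Il4ra, read 15.8 and 7.31 in WT, against 17.9 and 4.17 in KO. The soluble antagonists were dim and overlapped in all 3 cases: Il1rn, which blocks the interleukin 1 receptor, differed by -0.31 ± 0.37, Il18bp, which captures interleukin 18, by -0.28 ± 0.55, and Il1f5, an antagonist of the interleukin 36 receptor, by 0.20 ± 0.46.

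**Figure D2:**
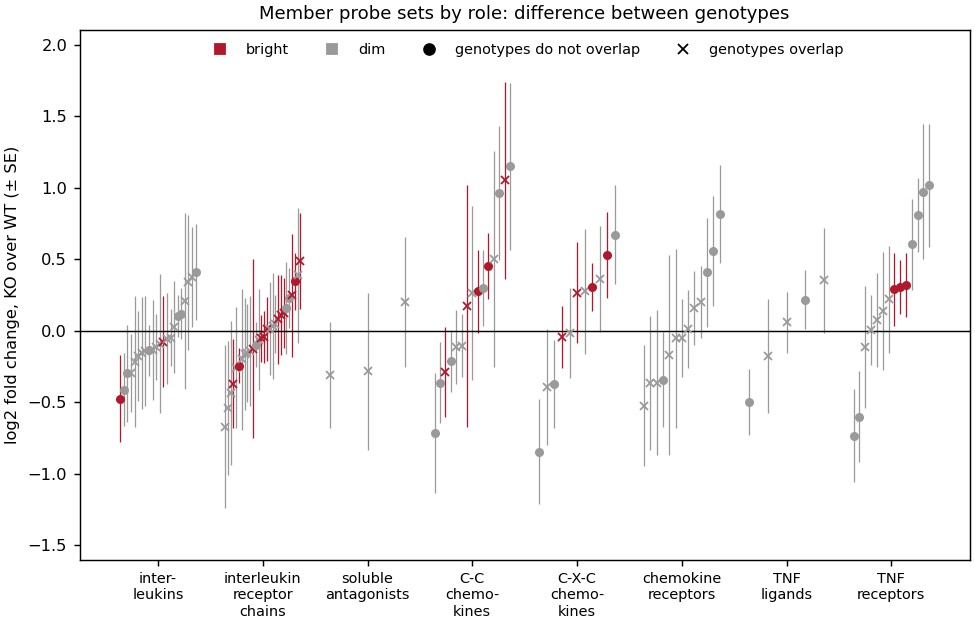
Log2 fold change of KO over WT with its standard error (vertical axis) for all 111 member probe sets, sorted within 8 roles (horizontal axis). Red marks bright and grey dim probe sets, circles mark genotypes that do not overlap and crosses those that do. The 3 bright TNF receptors sit between 0.29 and 0.32, and the 2 bright interleukins lie below 0.

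Of the 9 bright chemokine probe sets, 7 had a higher mean in KO, against 48.5% of bright probe sets, and 3 of the 7 measured Cxcl12 alone. The 7 included 4 of the 5 bright C-C chemokine probe sets. Of these, 2, Ccl9 and Ccl25, were higher without overlap, against 16.0% of bright probe sets. Ccl9, a macrophage inflammatory protein that binds Ccr1, read 188 and 129.6 in WT, against 241 and 198 in KO (0.45 ± 0.23, limma adjusted p = 0.908). Ccl25, a thymic and intestinal chemokine that binds Ccr9, read 70.1 and 68.8 in WT, against 100.4 and 74.9 in KO (0.27 ± 0.29), with KO replicate 2 close to WT.

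The other 3 bright C-C chemokines overlapped between genotypes, and in each the WT pools lay far apart. Ccl5, which attracts T cells, read 113 and 13.7 in WT, against 98.3 and 120.1 in KO. WT replicate 1 lay within the KO range and WT replicate 2 far below it, giving 1.05 ± 0.69 over all arrays and -0.05 without WT replicate 2. Ccl8, a monocyte chemoattractant, read 286 and 36.9 in WT, against 74.5 and 206 in KO (0.17 ± 0.85), a wider gap between WT pools than between genotypes. Ccl11, the eosinophil attractant eotaxin, read 259 and 130.4 in WT, against 148 and 149 in KO (-0.29 ± 0.32), with WT replicate 1 above the other 3 arrays.

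Of 10 dim C-C chemokine probe sets, 3 were higher and 3 lower without overlap, against 18.0% and 16.3% of dim probe sets. Ccl6 read 40.5 and 15.7 in WT, against 46.4 and 87.9 in KO (0.96 ± 0.47). Ccl1 read 11.6 and 69.5 in WT, against 78.8 and 99.6 in KO on 1 probe set (1.15 ± 0.58) and overlapped on the other (-0.11 ± 0.26). Ccl2, the main attractant of monocytes, read 31.2 and 35.0 in WT, against 26.4 and 6.37 in KO (-0.71 ± 0.42), the lower KO pool setting most of the difference. The dim Ccl3 was higher by 0.30 ± 0.27, and Ccl17 and Ccl12 were lower by -0.36 ± 0.28 and -0.21 ± 0.22.

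Cxcl12, the stromal chemokine that retains and guides cells bearing Cxcr4, had 3 bright probe sets and a higher KO mean on each. The brightest of them read 391 and 341 in WT, against 399.8 and 516 in KO (0.30 ± 0.17, limma adjusted p = 0.908). Another read 67.4 and 114 in WT, against 122 and 147 in KO (0.53 ± 0.30), also without overlap. The remaining one read 181 and 81.6 in WT, against 154 and 146 in KO (0.26 ± 0.35), which overlapped and turned to -0.25 without WT replicate 2. The receptor Cxcr4 was dim and also higher without overlap, at 16.1 and 30.5 in WT, against 32.7 and 47.9 in KO (0.55 ± 0.39). The Cxcl12 probe sets shared a direction by mean, and WT replicate 2 was the lowest array for 2 of them and WT replicate 1 for the other.

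Cxcl14, a chemokine of epithelial and stromal cells, read 272 and 327 in WT, against 351 and 238 in KO (-0.04 ± 0.22). The interferon-induced Cxcl9 and Cxcl10, both ligands of Cxcr3, went in opposite directions. Cxcl9 read 22.0 and 14.3 in WT, against 41.8 and 32.2 in KO (0.67 ± 0.35), while Cxcl10 read 10.7 and 33.5 in WT, against 3.19 and 7.16 in KO (-0.85 ± 0.37). Neither pair of genotypes overlapped, and all these readings were dim. Their receptor Cxcr3 differed by -0.05 ± 0.27. Of the neutrophil attractants, Cxcl1 had a lower KO mean on both probe sets (-0.37 ± 0.31 and -0.39 ± 0.41), Cxcl2 a higher one (0.27 ± 0.44) and Cxcl5 differed by -0.02 ± 0.31.

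Chemokine receptors were dim in all 13 cases, with intensities between 5.66 and 65.6. Ccr2, the monocyte receptor for Ccl2, read 25.7 and 35.6 in WT, against 65.6 and 62.6 in KO (0.81 ± 0.34, limma adjusted p = 0.908). Its pools lay close together within each genotype, and its ligand Ccl2 stood the other way. Ccr3, the eotaxin receptor, was higher without overlap by 0.41 ± 0.38, and Ccr6 lower by -0.34 ± 0.33. The lymphocyte homing receptors Ccr7 and Ccr9 had the widest gaps: Ccr7 read 55.7 and 19.7 in WT, against 13.5 and 65.6 in KO, and Ccr9 48.8 and 14.5 in WT, against 5.66 and 58.0 in KO. For both genes WT replicate 1 and KO replicate 2 were high and the other arrays low, and their differences were -0.05 ± 0.62 and -0.17 ± 0.70. Ccl7 and Il1rap also had these arrays as the higher pair, at 26.7, 7.28, 6.05 and 48.2 and at 28.2, 6.18, 3.67 and 22.5 in WT replicates 1 and 2 and KO replicates 1 and 2. Further members with the same higher pair included the bright Ccl8, the bright probe set of Il4ra, and the dim Ccl22 and Cxcl2.

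Of 14 TNF receptor probe sets, 7 were higher and 2 lower without overlap, against 17.0% and 17.6% of all probe sets, and their median log2 fold change was 0.25. All 3 bright ones were higher in both KO pools. Tnfrsf1a, the main receptor for TNF, read 151 and 135 in WT, against 171 and 189 in KO (0.30 ± 0.19, limma adjusted p = 0.908). Tnfrsf1b, the other TNF receptor, read 106 and 86.8 in WT, against 108 and 134 in KO (0.29 ± 0.25), so KO replicate 1 and WT replicate 1 were nearly equal. Tnfrsf21, or death receptor 6, read 100.0 and 104 in WT, against 139 and 123 in KO (0.32 ± 0.22). With 1 array left out, Tnfrsf1b ranged from 0.15 to 0.43. The dim Tnfrsf1a probe set read 46.6 and 59.2 in WT, against 39.8 and 86.2 in KO and overlapped.

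The receptor system of bone and immune cells formed by Tnfsf11 (RANKL), its receptor Tnfrsf11a (RANK) and its soluble decoy Tnfrsf11b (osteoprotegerin) was dim. Each of the 3 was without overlap between genotypes, as were 34.2% of all dim probe sets. RANKL read 15.8 and 12.5 in WT, against 6.87 and 4.92 in KO (-0.50 ± 0.23). RANK read 70.5 and 87.2 in WT, against 51.4 and 42.7 in KO (-0.60 ± 0.32). Osteoprotegerin stood the other way, at 6.21 and 4.45 in WT, against 16.3 and 23.8 in KO (0.81 ± 0.26, limma adjusted p = 0.830). For each of the 3 the larger gap between pools was smaller than the difference between genotypes, while in 78.8% of dim probe sets it was larger. Osteoprotegerin was read at intensities where specific signal is uncertain. These 3 were put side by side after their values were seen.

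Tnfrsf9, Tnfrsf4 and Tnfrsf8, receptors of activated T cells, were also dim and read higher in KO without overlap on 1 probe set each. Tnfrsf9 (4-1BB) read 22.0 and 12.5 in WT, against 70.7 and 32.0 in KO on 1 probe set (1.01 ± 0.43) and 3.14 and 15.6 in WT, against 13.2 and 6.69 in KO on the other. Tnfrsf4 (OX40) read 17.5 and 18.8 in WT, against 80.6 and 27.8 in KO (0.97 ± 0.47), with KO replicate 1 well above the rest. Tnfrsf8 (CD30) differed by 0.60 ± 0.32 on 1 probe set and by 0.0038 ± 0.24 on the other, so for Tnfrsf9 and Tnfrsf8 the other probe set did not separate the genotypes. Other T cell receptors of the family did not follow: the dim Tnfrsf18 (GITR) overlapped (0.22 ± 0.37), and the bright Cd27, named outside the symbol pattern, read 157 and 93.8 in WT, against 86.3 and 59.3 in KO (-0.66 ± 0.34). Tnfrsf19, a receptor of the TNF family expressed in developing tissues, was lower at 32.4 and 40.3 in WT, against 16.4 and 15.9 in KO (-0.74 ± 0.32). The ligands of the T cell receptors were dim. Tnfsf9 read 3.91 and 4.98 in WT, against 5.40 and 9.69 in KO, Tnfsf4 differed by 0.06 ± 0.21 and Tnfsf8 by 0.35 ± 0.37. Tnfsf10 (TRAIL) differed by -0.18 ± 0.40.

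**Figure D3:**
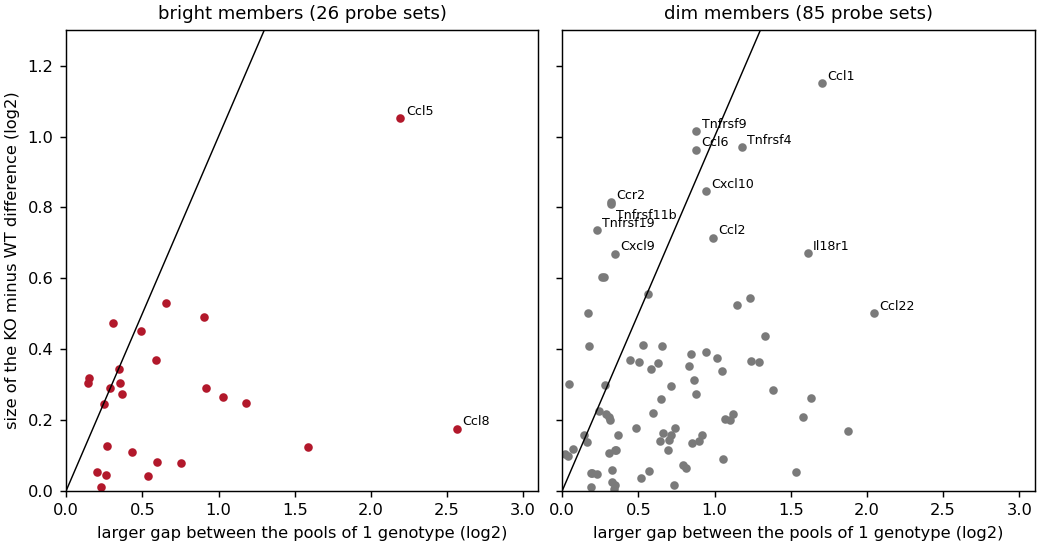
Size of the difference between genotype means (vertical axis, log2) against the larger of the gaps between the 2 pools of WT and of KO (horizontal axis, log2), for bright (left) and dim (right) member probe sets, with the line of equality. In 22 of 26 bright and 69 of 85 dim members the point lies right of the line, where pools of 1 genotype differed by more than the genotypes did.

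The spread between pools was as large as the differences between genotypes for most members. In 91 of 111 members (82.0%, against 78.0% of all probe sets) the larger gap between pools of 1 genotype exceeded the difference between genotype means. Bright members differed by at least 2-fold between the WT pools in 5 of 26 cases (19.2%, against 2.24% of bright probe sets). These were Ccl5, Ccl8, Il4ra and 1 probe set each of Il1r2 and Cxcl12, and all 5 were lower in WT replicate 2. Between KO pools, 2 bright members, Ccl8 and Il4ra, were at least 2-fold apart (7.69%, against 1.9% of bright probe sets). With the pseudocount of 14, 3 members, Ccl5 and the dim Ccl1 and Tnfrsf9, reached a 2-fold difference between genotypes, as did 265 of all 12422 probe sets (2.13%). With a pseudocount of 5% of the table's median, the dim Cxcl10 and Ccl2 also did, at -1.45 and -1.09.

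WT replicate 2 was the lowest array for 15 of the 26 bright members (57.7%, against 24.5% of bright probe sets), including 6 of the 8 that were higher in KO without overlap (496 of 995 bright probe sets of that kind, or 49.8%, were lowest there). Markers of several cell types were low on the same array. The summed intensity of 5 B lymphocyte markers was 665 and 290.3 in WT, against 561 and 764.5 in KO, and that of 6 T lymphocyte markers 427 and 257 in WT, against 330.2 and 427 in KO. The 11 macrophage markers summed to 1875 and 1631 in WT, against 1653 and 1861 in KO, and the 7 neutrophil markers to 270.4 and 337 in WT, against 267 and 292 in KO. The 2 erythroid markers were also lowest there, at a mean of -0.58 from their own 4-array mean (log2). The adipocyte and fibroblast lists stood at -0.18 and -0.16 there, and lower still on KO replicate 2, at -0.31 and -0.17. No marker of these lists read 0 on any array, which does not show that the cells were present, as dim readings may hold no specific signal. Only 1 of the 6 T lymphocyte markers and 2 of the 7 neutrophil markers were bright. The part of these cells in the higher KO means of the bright members was not tested.

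**Figure D4:**
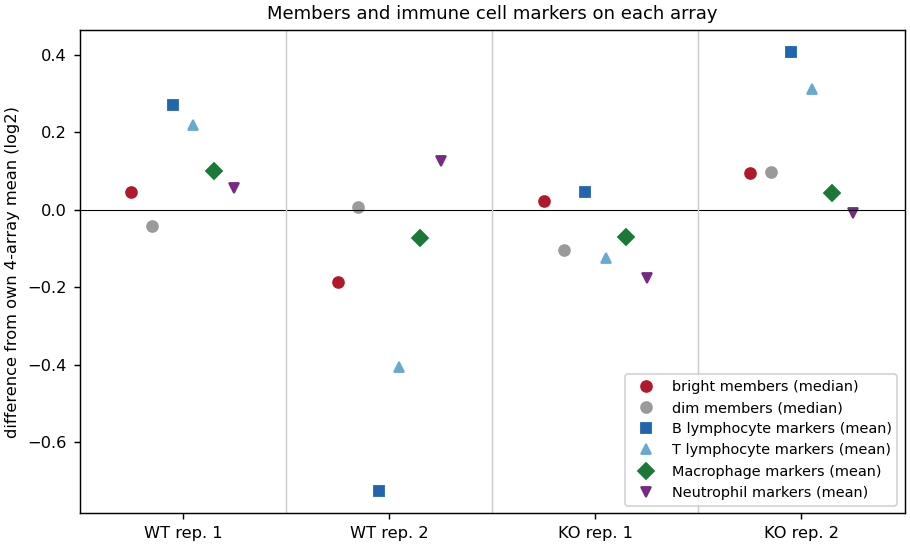
Difference from the own 4-array mean on the log2 scale (vertical axis) on each array (horizontal axis), as the median over bright and over dim members and as the mean over 4 lists of immune cell markers. On WT replicate 2 the bright members stand at -0.19, the B lymphocyte markers at -0.73 and the T lymphocyte markers at -0.41, and the dim members at 0.0085.

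Several probe sets for 1 gene allow a check within the arrays. Of the 12 genes with more than 1 member probe set, 9 had the same sign of difference on all of them and 3, Ccl1, Il4 and Il4ra, had opposite signs. The 9 ranged from Cxcl12, at 0.26 to 0.53, to Il17ra, at 0.0114 and 0.015, where a shared sign says little. Probe sets of a gene read the same pools, so matching signs do not show a difference between genotypes. Of the 96 genes, 5 (Cxcl12, Il12rb2, Il17ra, Il5ra and Tnfrsf1a) lie on chromosome 6, as Crhr2 does.

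Genes that carry cytokine signals inside the cell did not pass the test either. In each of 5 lists below, 0 genes had an adjusted p under 0.05. Of 9 JAK and STAT genes, 4 had a higher and 5 a lower KO mean (median -0.06). The kinase Tyk2, used by interferon and interleukin 12 receptors, read 107 and 55.6 in WT, against 189 and 117 in KO (0.83 ± 0.37), and Stat5a read 303 and 341 in WT, against 374 and 380.1 in KO (0.22 ± 0.13). Both separated the genotypes, as did Jak2, so 3 of the 9 were without overlap, against 34.6% of all probe sets. Of 11 genes of SOCS and PIAS proteins and receptor phosphatases, 7 were higher and 4 lower by mean (median 0.15). Cish, a feedback inhibitor induced by STAT5, read 314 and 220.5 in WT, against 177 and 183 in KO (-0.52 ± 0.21, unadjusted p = 0.0456 and adjusted p = 0.902 with limma), and the dim phosphatase Ptpn11 read 2.91 and 3.17 in WT, against 2.86 and 19.5 in KO (0.48 ± 0.34), with KO replicate 2 alone above the rest.

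In the NF-kappa B and interleukin 1 pathway, 8 of 16 genes were higher and 8 lower by mean (median 0.0068), and 4 were lower and 1 higher without overlap, against 17.6% and 17.0% of all probe sets. The higher one was the bright inhibitor Nfkbia, at 284.5 and 324 in WT, against 339.7 and 489 in KO (0.41 ± 0.20). The dim NF-kappa B subunit Rel read 21.6 and 16.5 in WT, against 5.79 and 4.46 in KO (-0.79 ± 0.24). The inhibitor Nfkbib read 310.0 and 299 in WT, against 247 and 156 in KO (-0.60 ± 0.23, limma adjusted p = 0.874). Of 12 TRAF and death domain genes, 7 were higher and 5 lower (median 0.08), with the adaptors Traf5 at 0.94 ± 0.43 and Traf1 at -0.87 ± 0.43, both dim. Of 47 cytokines and receptors named outside the symbol pattern, 26 were higher and 21 lower (median 0.07). The leptin receptor Lepr read 14.9 and 3.56 in WT, against 45.6 and 24.7 in KO (1.09 ± 0.40), and the interferon receptor chain Ifnar1 22.8 and 21.6 in WT, against 58.3 and 41.9 in KO (0.81 ± 0.35), both dim. Without overlap, 13 of the 47 were higher and 7 lower, against 17.0% and 17.6% of all probe sets. The lower ones included, besides Cd27, the bright chemokine Cx3cl1 (-0.58 ± 0.30) and Csf2rb, the shared receptor chain for interleukins 3 and 5 and GM-CSF (-0.51 ± 0.31), named after their values were seen.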

How the data were processed

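The deposited table holds the authors' linear signal intensity for 12488 probe sets on 4 arrays, already scaled: the mean without the lowest and highest 2% was 200.2 on each array. How probes were summarised and their background corrected was not stated with this table. After 66 control probe sets were removed, log2(intensity + 14) values of 12422 probe sets entered a genotype model in limma 3.58.1 under R 4.3.3, with lmFit and then eBayes with an intensity trend, two-sided, with Benjamini-Hochberg adjustment over all of them. The pseudocount of 14 is 20% of the table's median. Array medians on that scale differed by 0.06, and no rescaling was applied. An exact permutation test of 2 against 2 arrays cannot go below p = 0.333, so none is given. The number of arrays limits the precision.

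Genes were named from the platform annotation, and all 96 were found by gene identifier in GRCm38.p6. The rule for full description took every member meeting the size rule, up to 8 bright members per direction without overlap and with the smallest p, 2 members per role and a set of genes of interest in muscle (35 probe sets of 30 genes). Other members were named after their values were seen. Members, lists and rules were chosen with earlier results of these data known. Each listed gene was represented by its brightest probe set. Alternatives covered the pseudocount, quantile normalization, bright probe sets alone, no trend, a replicate block and leaving out each array. The fit was also run on simulated arrays, with planted changes larger than that of any member. Pools with unlike tissue content were not simulated, so that run does not show what the fit can detect here. The labels exchange the genotype and tissue fields, so titles gave the groups.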

Additional observations from a re-analysis of the deposited data

How the results depend on the processing

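In the fit with all arrays, 0 of 111 members passed the adjusted test, and the smallest adjusted p of a named value under any alternative was 0.689 with limma. The count at an unadjusted p under 0.05 was 1, and it was 3 with 4 times the pseudocount, 2 after quantile normalization, 0 when only bright probe sets were fitted, 8 without the trend, 4 with the replicate block and 3 to 8 with 1 array left out. Same-numbered arrays deviated from their genotype means with a correlation of 0.0034 over probe sets. With 2 arrays in each genotype both pairs give this same value, so it cannot show whether replicate numbers pair the samples. Members without overlap numbered 40 (36.04%, with 34.6% of all probe sets), and 10 when only bright probe sets were fitted, since fewer were tested, and 72 to 78 with 1 array left out, where fewer arrays separate more easily. Members meeting the size rule numbered 0 to 2 with 1 array left out. The median over all members then ranged from -0.071 to 0.12, over bright members from 0.041 to 0.29 and over dim members from -0.11 to 0.11.

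Of the 35 named values, 19 kept their sign under every alternative run, and 16 reversed when an array was left out. Leaving out the first or the second WT array reversed 6 and 5 of them, and leaving out the first or the second KO array 4 and 8. Their log2 fold changes then ranged from -0.046 to 2.15 for Ccl5, from -0.25 to 0.78 for the third Cxcl12 probe set, from -0.15 to 0.048 for Cxcr3, from -0.46 to 0.30 for Il12a and from -0.47 to 0.34 for Il13ra1. The ranges were -0.42 to 0.066 for Il15, -0.15 to 0.047 for Il15ra, -0.97 to 0.41 for Il18bp, -0.34 to 0.23 for Il1b, -0.010 to 0.26 for Il1r1 and -0.74 to 0.12 for Il1rn. They were -0.92 to 0.67 and -0.22 to 0.29 for the bright and dim Il4ra probe sets, -0.13 to 0.88 for Il6, -0.18 to 0.087 for the dimmer Il6st probe set and -0.31 to 0.59 for the dim Tnfrsf1a probe set. Of the 19, 13 moved by over 1.5 times with an array left out, among them Ccl9 (0.21 to 0.70), the brightest Cxcl12 probe set (0.13 to 0.48), Ccl2 (-1.21 to -0.22) and Cxcl10 (-1.32 to -0.37). The causes were not tested. With 2 arrays in each genotype, each a pool of 2 mice, and most members dim, small differences were not detectable. Large ones could be missed too, as 0 of all 12422 probe sets passed the adjusted test. The brighter Crhr2 probe set, at -0.88 ± 0.25, had an adjusted p of 0.803 with limma. The bright exocrine pancreas marker Cel, at 2.93 ± 0.69, had the same adjusted p.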
